A study of Mus musculus with 6 samples.

Results

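The genes Fetub, Ttc9, Gfra2, Nrgn, Mia, Ccnd1, Gas7, Srpx2 and Gldn were followed in single cells of the mouse aortic root. These 9 genes, of 55402 features in the count matrices, had been listed as lesser-known genes gained in modulated smooth muscle cells (SMCs). They were chosen on their level in Myh11-positive cells of the traced lineage by genotype, their overlap with Fn1-high cells and their level in other cell types. All values by genotype, by Fn1 class and by cell type below are therefore descriptions of the data on which the genes were picked, and no test was made on them.

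The libraries came from male mice aged 24 weeks, and 4 aortas per group were combined before digestion with Liberase and elastase. The group labelled Klf4-floxed carried the Fbn1 C1041G/+ mutation (a missense allele of fibrillin-1 on 1 chromosome, used as a model of Marfan syndrome) and a floxed Klf4 allele. The Marfan group carried Fbn1 C1041G/+ and wild-type Klf4. The third group was littermate controls with wild-type Klf4. The roots were sorted on tdTomato, a red fluorescent reporter of the SMC lineage, into a lineage-positive and a lineage-negative fraction, which were captured apart. The Cre driver is not given in the sources used here. Each group and fraction was 1 library of pooled animals, so there is no replicate error, every ratio compares libraries, and all intervals are 95% intervals for counting error only.

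The lineage-positive libraries held 8943 barcodes and 95250397 unique molecular identifiers (UMIs) in the group labelled Klf4-floxed, 22905 and 87881816 in Marfan, and 8218 and 71583972 in control. The Marfan lineage-positive library stood apart in depth: 39.0% of its barcodes carried under 1000 UMIs, while the library labelled Klf4-floxed had 6.94% such barcodes and control 7.01%. After filters the SMC set, which is the lineage-positive cells with at least 1 Myh11 UMI, comprised 5843 cells labelled Klf4-floxed, 10163 Marfan cells and 5120 control cells, with median depths of 12995, 2323 and 11436 UMIs. An unnamed cluster of shallow cells held 45.0% of the Marfan set, and 3.54% and 2.93% of the sets labelled Klf4-floxed and control. Between 3 and 24 barcodes were shared by any pair of libraries, at most 0.403% of a library's cells. Levels are given as CPM, the UMIs of a gene over all UMIs of the summed cells, scaled to the usual fixed total. Klf4 itself reached 115 CPM in the SMC set of the library labelled Klf4-floxed, 44.6 CPM in Marfan and 28.3 CPM in control, so the transcript count does not show a loss of Klf4 there. These are 3′ tags, which can lie outside a deleted exon and then check nothing about the deletion. The reporter transcript TDT was at 228, 417 and 340 CPM in the same 3 sets and between 3.12 and 6.14 CPM in the lineage-negative libraries.

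Vascular SMCs are not terminally fixed. In diseased arteries they can lower their contractile genes and take on a matrix-producing state, called modulation, in which fibronectin (Fn1) is among the genes that go up. Of the 9 genes, 4 encode secreted or cell-surface matrix-type proteins. Fetub encodes fetuin-B, a plasma protein of the cystatin superfamily that is made mainly by liver and is needed in mice for fertilisation. Mia encodes a small secreted protein of cartilage and melanoma cells, Srpx2 a secreted sushi-repeat protein that binds the urokinase receptor, and Gldn gliomedin, an olfactomedin-domain protein with which Schwann cells gather sodium channels at nodes of Ranvier. Gfra2 is the membrane-anchored co-receptor for neurturin. The other 4 act inside the cell: Nrgn (neurogranin) binds calmodulin in neurons, Ccnd1 (cyclin D1) activates Cdk4 and Cdk6 in the first gap phase of the cell cycle, Gas7 is an F-BAR protein that shapes membrane and actin, and Ttc9 is a tetratricopeptide repeat protein.

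The genes lie apart in the genome (GRCm38, GENCODE M21): Fetub at chr16:22918334-22939778 on the plus strand, Ttc9 at chr12:81631249-81667557 plus, Gfra2 at chr14:70890120-70979838 plus, Nrgn at chr9:37544492-37552904 minus, Mia at chr7:27179742-27181157 minus, Ccnd1 at chr7:144929931-144939925 minus, Gas7 at chr11:67455437-67688990 plus, Srpx2 at chrX:133908426-133932446 plus and Gldn at chr9:54286486-54341786 plus. Their longest annotated transcripts have between 4 exons (Ttc9, Nrgn, Mia) and 15 exons (Gas7). Most overlapping annotated genes held few or no UMIs, namely Gm21983 at Mia, Gm12301 at Gas7 and Gldnos at Gldn with 0, and Glp2r at Gas7 with 25. The exception is LTO1, which overlaps Ccnd1 on the opposite strand and was counted at 15.4, 15.3 and 14.8 CPM in the SMC sets labelled Klf4-floxed, Marfan and control, and whether counting used the strand is not given in the sources used here.

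Because the genes were listed together, the 250 bases before each annotated start were searched on both strands for 4 short motifs: CACCC, the core of Krüppel-like factor sites, TGANTCA, the AP-1 site, GGAATG, a TEAD site, and the CArG box of serum response factor. RefSeq windows were at hand for 6 of the 9 genes. CACCC was found in 5 of the 6 (Fetub, Ttc9, Nrgn, Mia and Gldn), but 52.0% of all 32817 RefSeq windows hold it. TGANTCA was found in Srpx2 and Gldn, against 6.75% of all windows, GGAATG in Nrgn alone, against 12.6%, and the CArG box in none, against 1.47%. No match overlapped another, and a match is a string of letters, not a shown binding site. Of these windows, 4 are given here from RefSeq (GRCm38.p6), 5′ to 3′ on the gene's strand, because they show a window with 3 CACCC matches (Mia, as many as in Nrgn), the gene with the greatest genotype difference among the secreted proteins (Fetub) and both genes with an AP-1 match. Capitals mark the motifs, and GGGTG is CACCC read from the other strand.
Fetub, chr16:22918132-22918381, plus strand: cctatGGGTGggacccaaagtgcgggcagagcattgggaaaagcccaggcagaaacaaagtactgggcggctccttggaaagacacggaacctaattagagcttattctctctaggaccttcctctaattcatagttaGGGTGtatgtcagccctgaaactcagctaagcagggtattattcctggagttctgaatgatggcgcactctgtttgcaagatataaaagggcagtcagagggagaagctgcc
Mia, chr7:27181150-27181399, minus strand: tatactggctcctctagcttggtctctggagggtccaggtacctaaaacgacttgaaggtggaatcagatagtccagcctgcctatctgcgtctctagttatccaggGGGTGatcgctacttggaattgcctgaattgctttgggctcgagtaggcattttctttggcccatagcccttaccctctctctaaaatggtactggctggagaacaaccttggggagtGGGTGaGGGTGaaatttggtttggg
Srpx2, chrX:133908175-133908424, plus strand: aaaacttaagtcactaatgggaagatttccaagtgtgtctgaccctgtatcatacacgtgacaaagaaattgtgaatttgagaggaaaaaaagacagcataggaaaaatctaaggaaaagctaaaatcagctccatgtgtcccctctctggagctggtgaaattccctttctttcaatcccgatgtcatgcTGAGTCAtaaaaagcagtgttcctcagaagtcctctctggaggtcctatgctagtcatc
Gldn, chr9:54286236-54286485, plus strand: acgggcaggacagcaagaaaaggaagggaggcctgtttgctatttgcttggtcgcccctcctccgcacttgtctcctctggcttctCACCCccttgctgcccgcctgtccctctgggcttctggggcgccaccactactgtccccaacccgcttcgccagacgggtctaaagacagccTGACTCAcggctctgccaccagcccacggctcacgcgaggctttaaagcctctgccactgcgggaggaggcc

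Across genotypes, Ttc9 and Gfra2 were nearly silent in control SMCs, and Fetub and Ccnd1 were low there, at 3.69 and 3.60 CPM. All of these were plainly counted in both libraries with the Fbn1 mutation. Gas7, Nrgn and Mia were higher than these in control, but lower there than in both mutant libraries. Srpx2 and Gldn differed little between Marfan and control. Levels are CPM over all SMC-set cells of the library. Among the secreted and surface proteins, Fetub was at 56.0 CPM [54.3, 57.7] in the library labelled Klf4-floxed and 41.3 CPM [39.7, 42.8] in Marfan, against 3.69 CPM [3.21, 4.22] in control. Both mutant libraries were high and no interval overlapped another. The ratios to control were 15.2-fold (log2 3.92 [3.72, 4.13]) for the library labelled Klf4-floxed and 11.2-fold (log2 3.48 [3.28, 3.69]) for Marfan. Mia had 47.9 CPM [46.4, 49.5] in the library labelled Klf4-floxed and 46.7 CPM [45.1, 48.4] in Marfan, and 22.1 CPM [20.9, 23.3] in control. The mutant libraries overlapped each other and lay above control by 2.17-fold and 2.11-fold, the smallest gap among the 7 genes higher in both. Srpx2 had 19.9 CPM [18.9, 20.9] in the library labelled Klf4-floxed, 12.1 CPM [11.3, 13.0] in Marfan and 13.0 CPM [12, 13.9] in control. Only the library labelled Klf4-floxed was high for this urokinase-receptor ligand, by 1.53-fold over control, and the intervals of Marfan and control overlapped (log2 -0.10 [-0.24, 0.05]). Gldn was also highest in the library labelled Klf4-floxed, at 39.1 CPM [37.7, 40.5]. It had 25.4 CPM [24.2, 26.7] in Marfan and 22.2 CPM [21, 23.4] in control. Its 3 intervals were apart, but Marfan exceeded control by 1.15-fold only.

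Gfra2, the neurturin co-receptor, had 19.8 CPM [18.8, 20.8] in the library labelled Klf4-floxed, 12.2 CPM [11.4, 13.1] in Marfan and 1.24 CPM [0.972, 1.56] in control, where 72 UMIs were counted in all. The 3 intervals were apart, and the ratios to control were 15.9-fold and 9.84-fold. Ttc9 was the gene with the greatest ratio, at 32.1 CPM [30.8, 33.4] in the library labelled Klf4-floxed, 21.5 CPM [20.4, 22.6] in Marfan and 1.26 CPM [0.987, 1.58] in control. That is 25.5-fold (log2 4.67 [4.34, 5.03]) and 17.1-fold (log2 4.09 [3.75, 4.45]) above control, from 73 control UMIs. Nrgn was at 68.5 CPM [66.7, 70.4] in the library labelled Klf4-floxed, 45.4 CPM [43.8, 47.1] in Marfan and 17.0 CPM [16.0, 18.1] in control, so this calmodulin-binding protein was 4.03-fold and 2.67-fold above control with no overlap. Ccnd1 had 23.7 CPM [22.6, 24.8] in the library labelled Klf4-floxed, 20.02 CPM [19.0, 21.1] in Marfan and 3.60 CPM [3.13, 4.13] in control, ratios of 6.57-fold and 5.55-fold. Gas7 had 28.5 CPM [27.3, 29.7] in the library labelled Klf4-floxed, 22.4 CPM [21.3, 23.6] in Marfan and 6.04 CPM [5.42, 6.70] in control, ratios of 4.72-fold and 3.72-fold. Both of these genes were low in control alone.

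**Figure D1:**
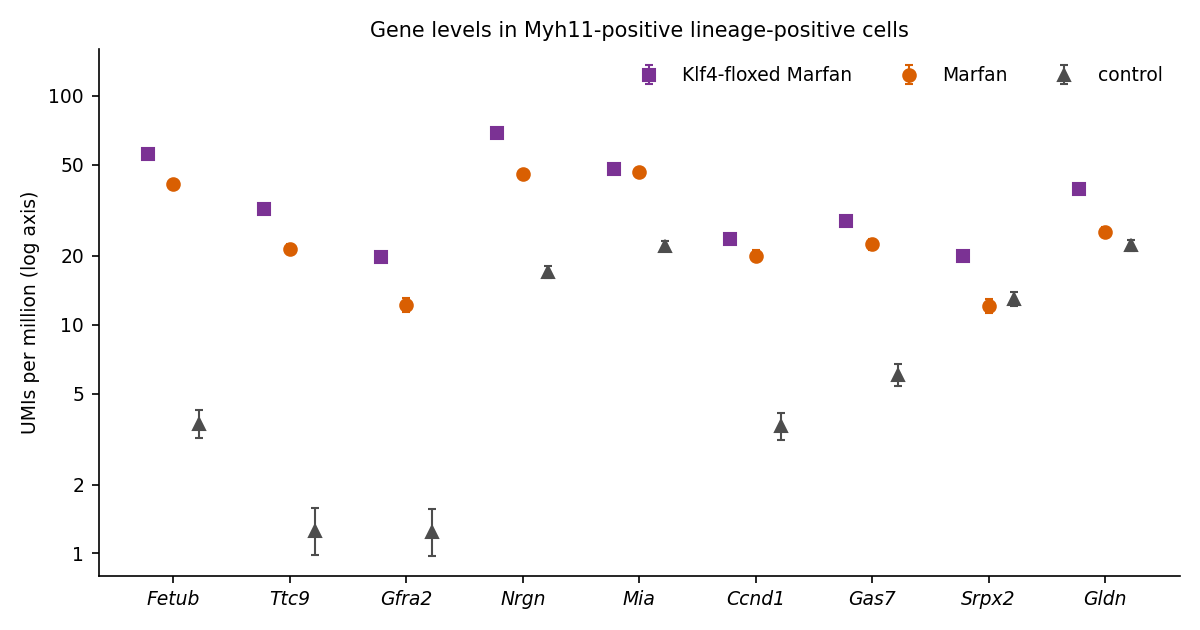
Level of each gene (CPM, log axis) in the SMC set of the library labelled Klf4-floxed, the Marfan library and the control library, with exact Poisson 95% intervals. Fetub, Ttc9 and Gfra2 lie between 9.84-fold and 25.5-fold above control in both mutant libraries, whereas the Marfan and control points of Srpx2 overlap.

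A gene was called higher when its ratio was at least 1.5-fold and it reached 5 CPM in either library. By that rule 9 of 9 genes were higher in the library labelled Klf4-floxed than in control, where 3.58% of the 9441 genes measured were, and 7 of 9 were higher in Marfan than in control (all but Srpx2 and Gldn), where 3.64% of all genes were. In the library labelled Klf4-floxed against Marfan, 4 of 9 were higher (Gfra2, Nrgn, Srpx2 and Gldn), where 0.365% of all genes were. These contrasts chose the genes, so nothing is read from the shares. The median log2 ratio of the 9 genes was 2.24, 1.89 and 0.58 in these 3 comparisons, beside -0.06, -0.07 and 0.01 over all genes measured, and the first pair share the control library. As a yardstick, of 15 modulated SMC genes 10 were higher and 1 lower in the library labelled Klf4-floxed than in control, and 13 were higher in Marfan than in control, while of 12 contractile genes 1 was lower in the library labelled Klf4-floxed. Ranked by size, Ttc9 was the 4th, Gfra2 the 7th and Fetub the 8th largest ratio of the library labelled Klf4-floxed to control, Mia the 131st, Gldn the 209th and Srpx2 the 305th.

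Between the libraries that share the Fbn1 mutation the genes did not move as one. Srpx2 (log2 0.71 [0.59, 0.84]), Gfra2 (0.69 [0.57, 0.82]) and Gldn (0.62 [0.53, 0.71]) had the 17th, 19th and 28th largest ratios of the library labelled Klf4-floxed to Marfan among 9318 genes, followed by Nrgn (0.59 [0.53, 0.66]), Ttc9 (0.58 [0.48, 0.67]) and Fetub (0.44 [0.37, 0.51]). Gas7 (0.34 [0.25, 0.44]) and Ccnd1 (0.24 [0.14, 0.35]) differed less, and Mia did not differ beyond counting error (0.04 [-0.03, 0.11]). Other cell types' markers also differed between the sets. Summed fibroblast markers were at 788, 954 and 777 CPM in the sets labelled Klf4-floxed, Marfan and control, valve and chondrocyte markers at 147, 272 and 116 CPM, macrophage markers at 10.7, 19.6 and 25.3 CPM, endothelial markers at 5.45, 8.94 and 15.9 CPM, and erythroid markers at 27.5, 69.7 and 2.62 CPM. The ratios were also taken without lineage-positive cells that clustered with lineage-negative classes, a choice made after seeing the data. No cluster was named erythroid, so this cannot measure the part of the erythroid markers. Nor can it measure free RNA in the cells that remain. Ccnd1 then stood at a log2 ratio of 3.33 (2.72 with those cells) for the library labelled Klf4-floxed against control. Gfra2 stood at 3.90 (3.30) for Marfan against control. Both are examples that rose, and the other ratios under this choice are not reported here. With a minimum of UMIs per cell 4 times as high, which removes most of the shallow Marfan cells, the Marfan to control log2 ratios were 3.51 for Fetub, 4.13 for Ttc9, 3.28 for Gfra2, 1.43 for Nrgn, 1.07 for Mia, 2.50 for Ccnd1, 1.93 for Gas7, -0.10 for Srpx2 and 0.23 for Gldn.

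Each gene was detected in a minority of cells in every library. At these levels an evenly spread gene is also missed in most cells, so such shares alone do not show concentration. To compare shares of cells, each cell was thinned to 8000 UMIs, which kept 4763, 3438 and 3921 cells and left out 1080, 6725 and 1199 shallower ones in the sets labelled Klf4-floxed, Marfan and control. Ttc9 was then detected in 11.8%, 9.51% and 0.510% of cells (13.8%, 6.53% and 0.703% of all cells before thinning), and Gfra2 in 8.96%, 5.79% and 0.638% (10.5%, 4.32% and 1.04%). For these genes the control SMCs were nearly all negative. Nrgn was detected in 20.6%, 16.6% and 8.93% of cells (24.2%, 12% and 11%), Mia in 13.8%, 12.9% and 10.4% (15.5%, 9.92% and 11.6%) and Gldn in 20.7%, 15.4% and 14.6% (27.7%, 10.8% and 18.0%). The shares of Mia-positive cells were thus closer than its summed levels, and the highest UMI count of Mia in a single cell was 20 in the library labelled Klf4-floxed and 24 in Marfan, against 7 in control. Fetub (12.6%, 10.6% and 2.07%), Ccnd1 (7.89%, 7.59% and 1.56%), Gas7 (12.6%, 11.6% and 3.85%) and Srpx2 (11.3%, 7.45% and 8.59%) kept the order of their levels. Before thinning their shares were 13.9%, 8.32% and 2.73% for Fetub, 9.79%, 5.66% and 1.89% for Ccnd1, 16.4%, 8.31% and 5.25% for Gas7, and 16.0%, 5.73% and 11.1% for Srpx2.

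Free RNA can give UMIs in cells that do not express a gene, so shares were also taken at 2000 UMIs in the macrophage or monocyte class of the lineage-negative libraries, which lacks most of these genes. Nrgn was in 8.16%, 6.54% and 2.80% of SMCs labelled Klf4-floxed, Marfan and control, and in none of 475, 700 and 160 macrophages of these libraries, which allows up to 0.774%, 0.526% and 2.28% (exact binomial). Fetub was in 5.90%, 4.92% and 0.599% of SMCs, against 0%, 0.143% and 0% of macrophages, and Gldn in 6.60%, 4.35% and 3.84%, against 0% in each. Mia was in 5.64%, 5.98% and 3.30% of SMCs, against 0.211%, 0.143% and 0% of macrophages, Ttc9 in 3.97%, 3.16% and 0.240%, against 0.211%, 0% and 0%, and Gfra2 in 3.27%, 2.11% and 0.220%, against 0.421%, 0% and 0%. Median depths were 12995, 2323 and 11436 UMIs in the SMC sets and 8813.5, 9908 and 10537 UMIs in the macrophages. These macrophages were captured apart from the lineage-positive cells, so their shares cannot measure free SMC RNA in the lineage-positive libraries. The control shares of Fetub, Ttc9 and Gfra2 lay within the interval that 160 macrophages allow, and are not read as expression. Ccnd1 and Gas7 are genes of macrophages too and were not checked in this way.

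Single cells carried several of the genes at once. At 8000 UMIs a cell contained on average 1.20 of the 9 genes in the library labelled Klf4-floxed, 0.974 in Marfan and 0.511 in control. At least 3 were found in 15.7%, 12.8% and 1.96% of cells, and at least 5 in 5.96%, 4.07% and 0.0765%. Among cells with at least 16 Fn1 UMIs at this depth, called Fn1-high, 52.7%, 47.5% and 9.38% held at least 3 of the genes (266 of 505, 191 of 402 and 3 of 32 cells), against 11.3%, 8.20% and 1.90% of the other cells. In the library labelled Klf4-floxed, 56.0% of cells with Gfra2 also held Fetub, against 8.28% of cells without Gfra2, and 54.3% of cells with Ttc9 held Nrgn, against 16.1% of those without. Gas7 was in 52.9% of Gfra2 cells, against 8.65% of the rest, and in 48.1% of Ccnd1 cells, against 9.57% of the rest. The genes therefore met in the same cells more often than in the remaining cells of that library, a description of 1 library in which cells also differ in state and in the RNA they hold of every gene.

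**Figure D2:**
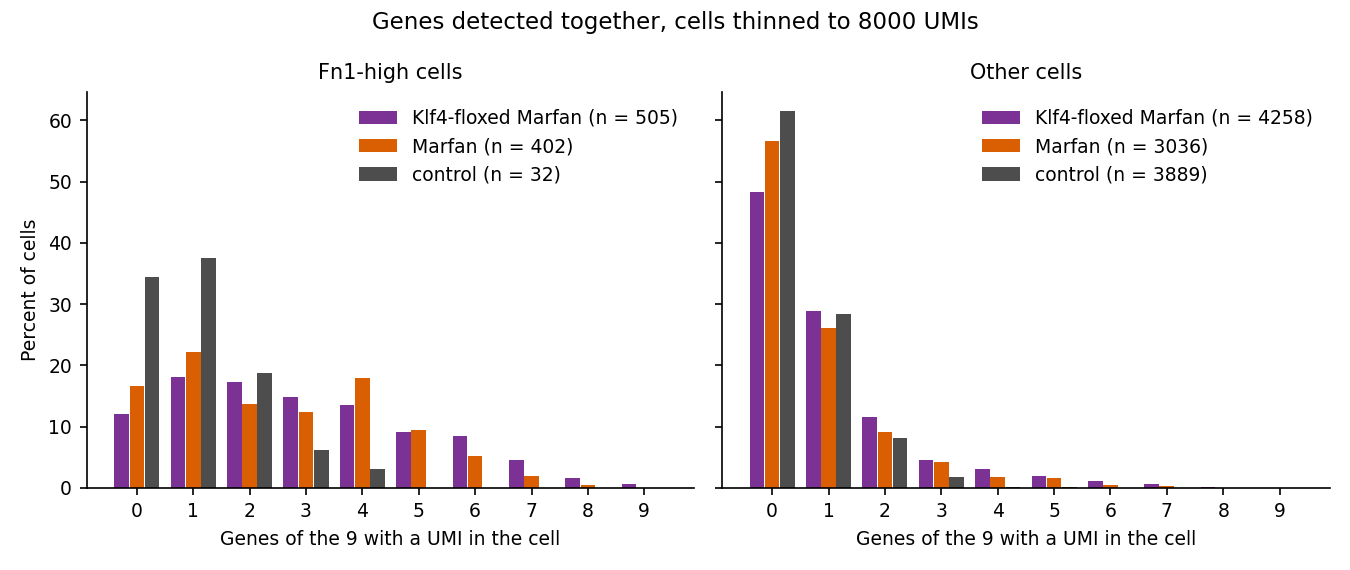
Share of SMC-set cells (%) holding a given number of the 9 genes at 8000 UMIs per cell, for Fn1-high cells (at least 16 Fn1 UMIs at that depth) and all other cells of the library labelled Klf4-floxed (505 and 4258 cells), Marfan (402 and 3036) and control (32 and 3889). In the mutant libraries 52.7% and 47.5% of Fn1-high cells held at least 3 genes, against 9.38% of the 32 control Fn1-high cells.

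The cells were next ordered by Fn1. Cells were thinned to 2000 UMIs and classed as Fn1-zero (no UMI), Fn1-mid (1 to 3 UMIs) or Fn1-high (at least 4), which left out 131 cells labelled Klf4-floxed, 4629 Marfan cells and 115 control cells. Fn1-high cells made up 13.2%, 12.9% and 1.82% of the 3 sets (756, 716 and 91 cells). Levels were taken from the full counts of the cells in each class. Every gene was higher in Fn1-high than in Fn1-zero cells by at least 1.5-fold in both mutant libraries, 9 of 9 labelled Klf4-floxed (7.53% of all genes) and 9 of 9 in Marfan (7.93%). In control it was 7 of 9 (10.3%), all but Gfra2 and Mia. The overlap with Fn1-high cells chose the genes, so these counts are descriptions.

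Ttc9 had the steepest ratio, with 112 CPM in Fn1-high cells, 27.9 in Fn1-mid and 7.16 in Fn1-zero cells labelled Klf4-floxed, 75.5, 19.3 and 5.34 CPM in Marfan, and 23.7, 1.68 and 0.420 CPM in control. Fn1-high exceeded Fn1-zero by log2 3.97 [3.77, 4.18], 3.82 [3.55, 4.10] and 5.82 [4.90, 6.77], the last from 29 UMIs in control Fn1-high cells. The rare control Fn1-high cells thus lay above control Fn1-zero cells in Ttc9, but below the Fn1-high cells of both mutant libraries. Ccnd1 was next in the library labelled Klf4-floxed, at 79.2, 20.5 and 6.76 CPM (log2 3.55 [3.34, 3.77]), with 59.4, 17.7 and 7.97 CPM in Marfan and 17.1, 4.85 and 2.67 CPM in control. Gas7 followed at 74.6, 28.2 and 12 CPM in the library labelled Klf4-floxed, 63.0, 20.5 and 10.5 CPM in Marfan, and 22, 7.15 and 5.11 CPM in control. Both were graded, with Fn1-mid cells between the ends in every library. Nrgn, the calmodulin binder, was at 156, 74.0 and 31.1 CPM in the library labelled Klf4-floxed, 101, 49.5 and 21.7 CPM in Marfan, and 43.2, 24.2 and 13.4 CPM in control.

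For the secreted and surface proteins the control library was less uniform. Fetub was at 134, 56.3 and 27.3 CPM in Fn1-high, Fn1-mid and Fn1-zero cells labelled Klf4-floxed, 105, 41.7 and 18.7 CPM in Marfan, and 17.1, 3.73 and 3.28 CPM in control. Its log2 ratios of Fn1-high to Fn1-zero were alike, 2.29 [2.17, 2.41], 2.48 [2.32, 2.65] and 2.38 [1.64, 3.05]. Mia, the cartilage protein, was at 93.1, 57.2 and 21.7 CPM in the library labelled Klf4-floxed, 122, 46.2 and 20.2 CPM in Marfan, but 19.6, 26.5 and 20.4 CPM in control. There Fn1-high and Fn1-zero cells overlapped (log2 -0.06 [-0.71, 0.52]), and Fn1-mid cells lay slightly above Fn1-zero (0.38 [0.21, 0.55]). Over the processing alternatives the control Mia ratio of Fn1-high to Fn1-zero ran from -0.06 to 0.95, so the main value is at the low end. Srpx2 was at 43.9, 19.99 and 11 CPM in the library labelled Klf4-floxed, 28.5, 11.7 and 6.56 CPM in Marfan, and 17.9, 15.2 and 11.9 CPM in control, where the interval of the ratio spans no difference (0.59 [-0.10, 1.20]). Gldn was at 75.1, 39.3 and 25.8 CPM in the library labelled Klf4-floxed, 49.3, 25.5 and 16.9 CPM in Marfan and 31.0, 28.5 and 19.4 CPM in control, the shallowest gradient of the 9 in the mutant libraries (log2 1.54 in both). The receptor Gfra2 was at 51.6, 17.7 and 10.3 CPM in the library labelled Klf4-floxed and 36.2, 11.3 and 4.33 CPM in Marfan. In control it was low in every class, at 1.63, 1.99 and 0.913 CPM. Fn1-mid lay above Fn1-zero there (log2 1.12 [0.39, 1.85]), while Fn1-high cells held 2 UMIs in all (0.84 [-2.26, 2.79] against Fn1-zero), too few to show a difference.

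**Figure D3:**
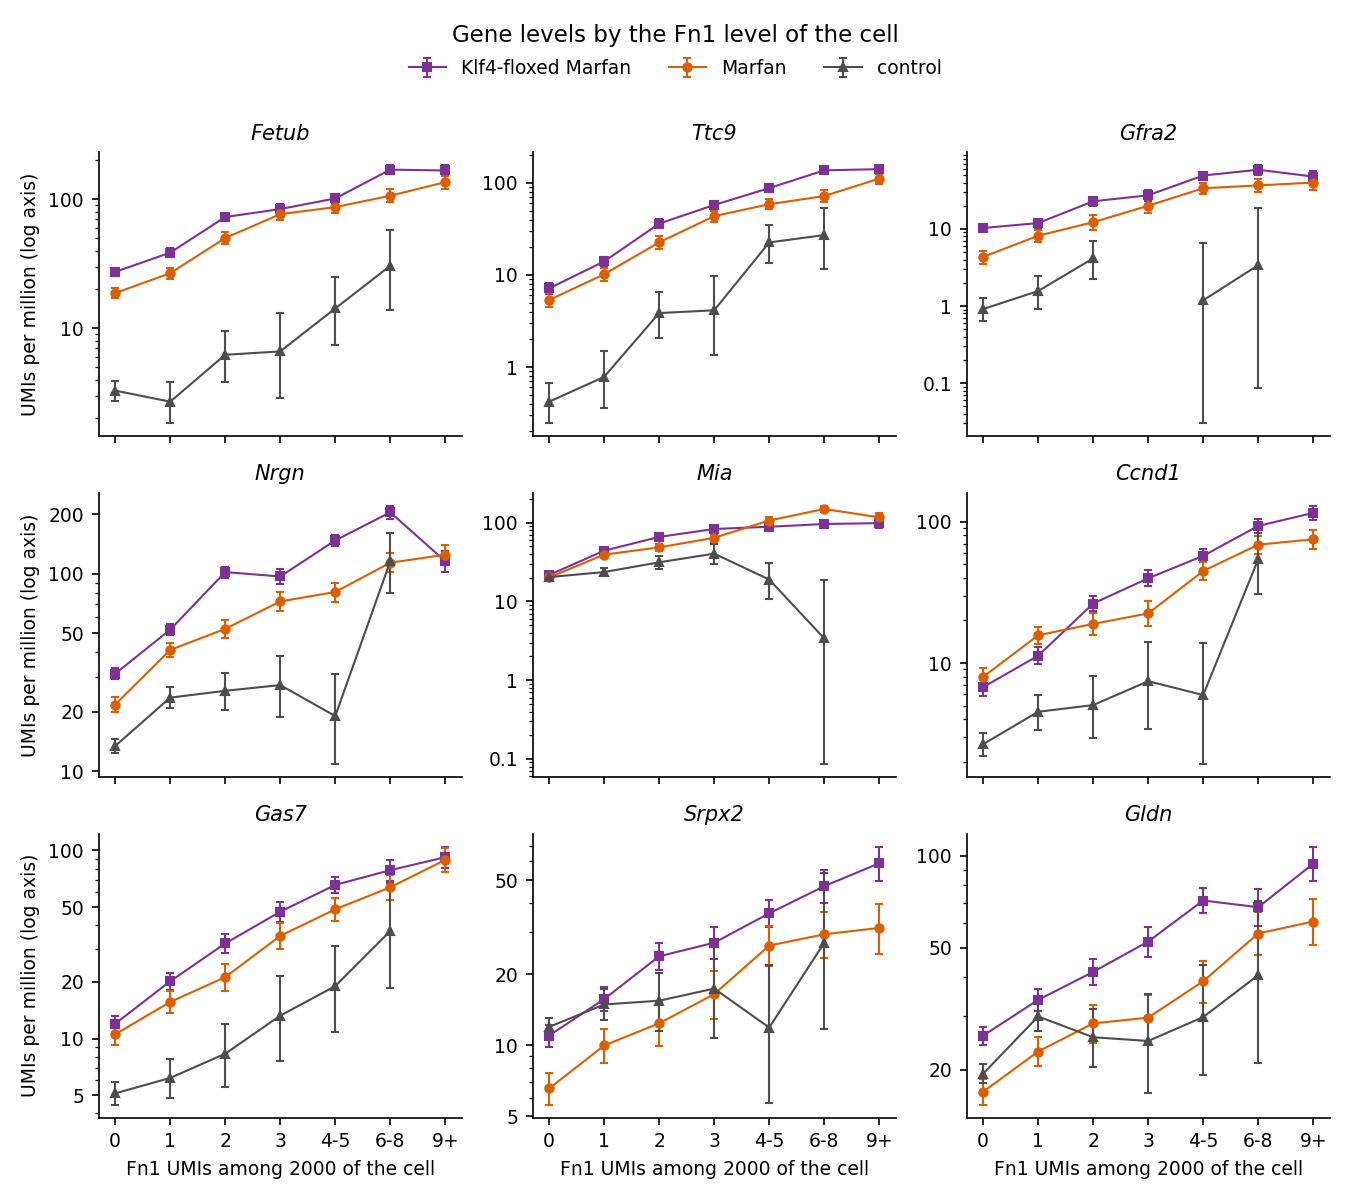
Level of each gene (CPM, log axis) against the number of Fn1 UMIs in the cell after thinning to 2000 UMIs, with exact Poisson 95% intervals, for the library labelled Klf4-floxed, Marfan and control. A line is broken where a bin holds no UMI of the gene (Gfra2 in control at 3 Fn1 UMIs), and control has no point at 9 or more. The mutant lines climb with Fn1 in all 9 panels. Control Mia is about as low in Fn1-high as in Fn1-zero cells (log2 -0.06, up to 0.95 over the processing alternatives).

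Fn1-high cells differed from Fn1-zero cells in more than these genes. Myh11 was at 1428, 1426 and 2308 CPM in Fn1-high cells labelled Klf4-floxed, Marfan and control, against 2182, 2278 and 2565 CPM in Fn1-zero cells, and summed contractile genes at 36053, 36526 and 47469 CPM, against 60245, 67624 and 60184 CPM. Valve and chondrocyte markers summed to 260, 582 and 266 CPM in Fn1-high cells, against 96.0, 139 and 92.6 CPM in Fn1-zero cells. Chad, among the 6 markers, was at 0 in both classes of the library labelled Klf4-floxed, and Chad and Col2a1 were at 0 in control Fn1-high cells. Fibroblast markers barely differed, at 913, 985 and 876 CPM, against 874, 1043 and 783 CPM, with Pi16 at 0 in Marfan and control Fn1-high cells. Macrophage markers were lower in Fn1-high cells, at 7.19, 2.76 and 2.45 CPM, against 11.6, 37.1 and 30.6 CPM, and erythroid markers were higher in the library labelled Klf4-floxed alone, at 90.7 CPM, against 2.19 CPM. What part the markers that were higher have in the gradients was not tested.

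The genotype difference was then looked at within a Fn1 class. In Fn1-high cells, 9 of 9 genes were higher in the library labelled Klf4-floxed than in control (8.92% of all genes), 9 of 9 in Marfan than in control (9.2%), and 3 of 9 in the library labelled Klf4-floxed than in Marfan (1.58%). In Fn1-zero cells the counts were 6 of 9 (2.69%), 5 of 9 (2.57%) and 3 of 9 (0.59%). Cells classed as Fn1-zero, which can hold Fn1 UMIs in the full counts, also differed between libraries for Ttc9 (log2 4.09 for the library labelled Klf4-floxed and 3.67 for Marfan, against control), Gfra2 (3.49 and 2.25), Fetub (3.06 and 2.51), Ccnd1 (1.34 and 1.58), Gas7 (1.23 and 1.04) and Nrgn (1.22 and 0.70). Gfra2 in Marfan, at 4.33 CPM in these cells, was under the 5 CPM needed for the count. Mia did not differ there beyond counting error (0.09 [-0.06, 0.24] and -0.01), although it did in Fn1-high cells (2.25 and 2.64). Srpx2 was lower in Marfan than in control Fn1-zero cells (-0.87 [-1.13, -0.61]) and level in those labelled Klf4-floxed (-0.12 [-0.32, 0.08]), and in Fn1-high cells it was higher in both (0.67 and 1.29). Gldn was at 0.41 and -0.20 in Fn1-zero cells of the mutant libraries, and at 1.28 and 0.67 in Fn1-high cells. Classes are not equal between libraries, since Fn1 itself was higher in the mutant libraries within Fn1-high cells (log2 0.60 and 0.73 for the library labelled Klf4-floxed and Marfan, against control) and within Fn1-zero cells (0.96 and 0.86).

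Seen from the gene, the overlap with Fn1 was partial. At 2000 UMIs, 47.6% of Ttc9-positive cells labelled Klf4-floxed and 45.7% of those in Marfan were Fn1-high, the greatest overlap of the 9, against 5 of 12 such cells in control. For the other genes the control share lay between 0% (Gfra2, 0 of 11 cells) and 10.0% (Fetub, 3 of 30 cells). Ccnd1 had 42.5% and 36.2%, Gas7 36.0% and 35.5%, and Gfra2 34.8% and 35.9%. Fetub had 31.5% and 27.9%, Nrgn 29.0% and 29.0%, and Mia 24.8% and 27.2%. Srpx2 had 31.3% and 29.0%, and Gldn 23.6% and 26.6%. For each of the 9 genes, most positive cells were thus not Fn1-high in either mutant library. In the other direction the genes were each found in a minority of Fn1-high cells at this depth: Nrgn in 17.9% and 14.7%, Ttc9 in 14.3% and 11.2%, Fetub in 14.0% and 10.6% and Srpx2 in 7.54% and 4.33%.

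Fn1-high cells were themselves mixed. They were split by Myh11 after thinning, a split chosen after seeing the data. In both mutant libraries 8 of 9 genes were higher at 0 than at 3 or more Myh11 UMIs, though not always highest at 0. The share of all genes with such a difference was not taken, so nothing is read from this count. Of the Fn1-high cells, 201, 236 and 319 labelled Klf4-floxed, 141, 260 and 315 in Marfan, and 12, 23 and 56 in control had 0, 1 to 2 and at least 3 Myh11 UMIs. In the library labelled Klf4-floxed, Fetub was at 274, 141 and 25.4 CPM over these 3 steps, Gfra2 at 109, 55.8 and 6.30 CPM, and Gas7 at 149, 77.0 and 18.2 CPM. The cells at 0 exceeded those at 3 or more by log2 3.43 for Fetub, 4.11 for Gfra2 and 3.03 for Gas7, and by 2.72 for Ttc9, 2.68 for Ccnd1, 2.12 for Mia and 1.79 for Nrgn. Srpx2 (0.85 [0.52, 1.19]) and Gldn (0.79 [0.53, 1.05]) had the smallest of these ratios, and Gldn was highest at the middle step (84.7, 96.2 and 49.1 CPM). In Marfan the same log2 ratios were 2.65 for Fetub, 2.03 for Ccnd1, 1.79 for Ttc9, 1.69 for Mia, 1.67 for Gas7, 1.55 for Gfra2, 1.05 for Nrgn and 0.94 for Srpx2, and Gldn turned to -0.27 [-0.65, 0.10]. The middle step was the highest in Marfan for Mia (158, 182 and 49.1 CPM), Nrgn (118, 141 and 57.0 CPM), Gfra2 (48.0, 50.9 and 16.4 CPM) and Gldn (39.7, 58.0 and 48.0 CPM). It was also the highest in control for Nrgn (25.3, 94.4 and 25.3 CPM) and Ttc9 (20.3, 44.0 and 15.5 CPM), with Ttc9 at 14 UMIs or fewer a step. Control Fn1-high cells without Myh11 were only 12. Fetub was at 70.9 CPM in them, from 14 UMIs, against 15.7 and 2.81 CPM at the higher steps. Fn1 also varied over the steps, at 3299, 3030 and 2288 CPM in the library labelled Klf4-floxed and 3281, 3300 and 2767 CPM in Marfan.

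**Figure D4:**
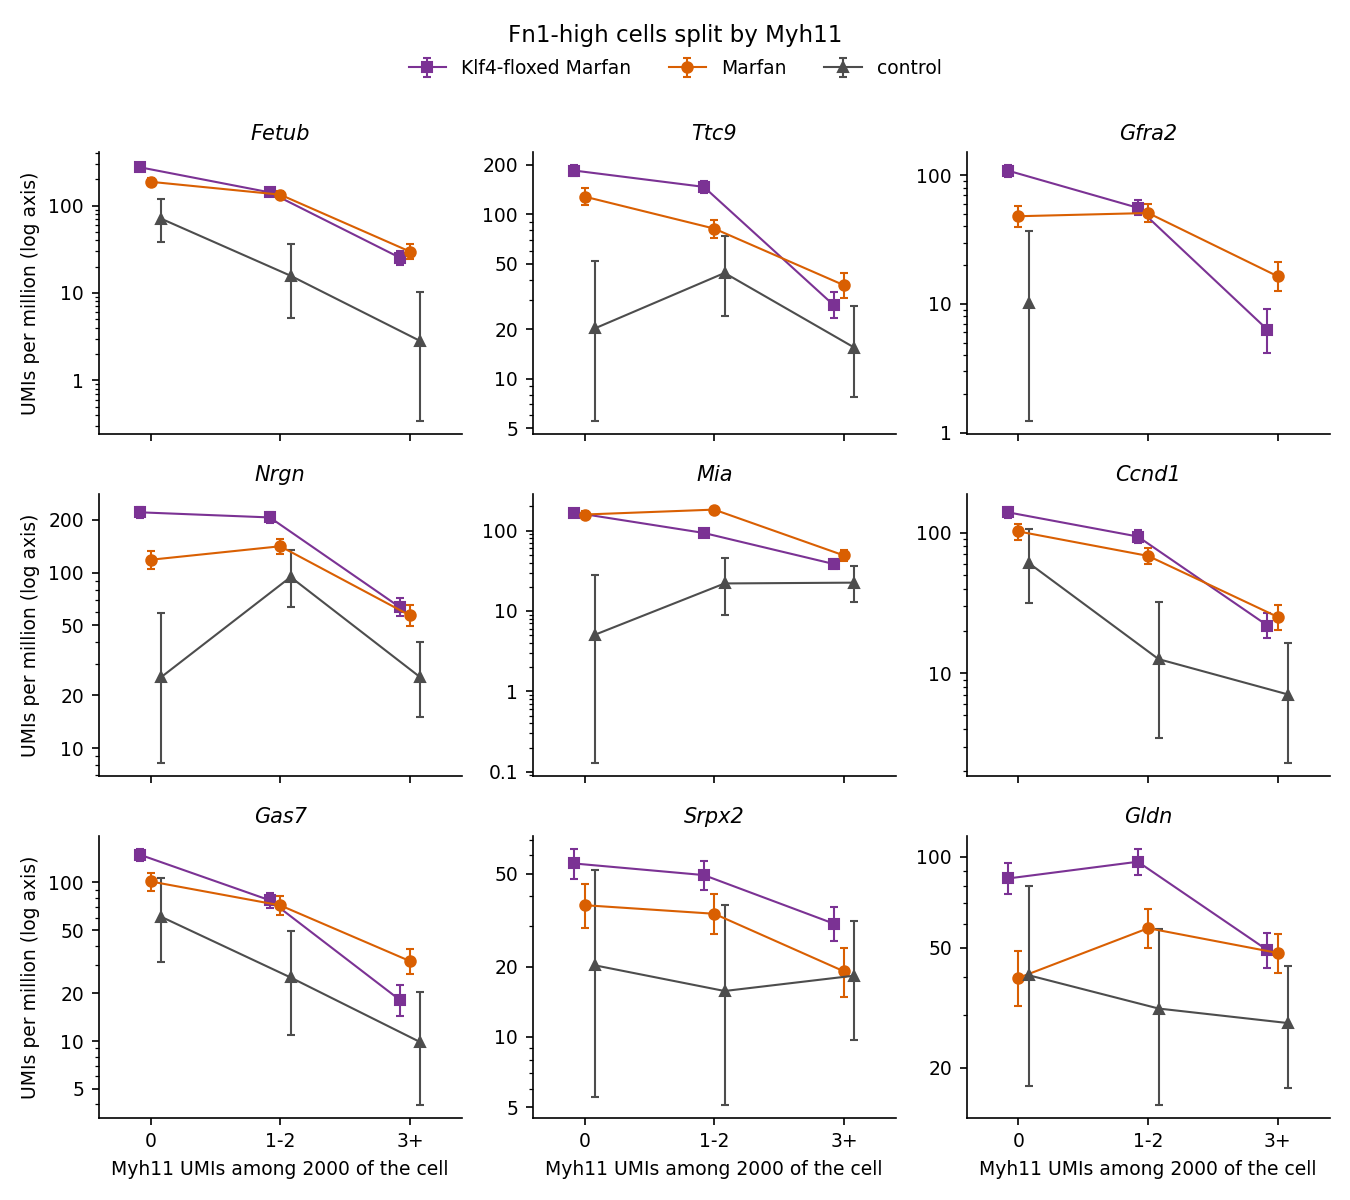
Level of each gene (CPM, log axis) in Fn1-high cells with 0, 1 to 2 and 3 or more Myh11 UMIs at 2000 UMIs per cell, with exact Poisson 95% intervals, for the library labelled Klf4-floxed, Marfan and control. Fetub, Gfra2 and Gas7 differ most between the ends in the library labelled Klf4-floxed (log2 3.43, 4.11 and 3.03), whereas Gldn stays within a narrow band in Marfan. Control Gfra2 has no UMI at the higher steps.

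By cluster, most UMIs of all genes but Srpx2 and Gldn lay in 1 group of cells in both mutant libraries, though not in control. The cells of all libraries were clustered together, and cluster 8, named modulated SMC-like from its markers, held 932 SMC-set cells labelled Klf4-floxed (16.0%), 755 Marfan cells (7.43%) and 60 control cells (1.17%). The Marfan share is over a set of which 45.0% lay in the shallow cluster, so it is not comparable with the other shares. Nrgn, Mia, Fetub and Ttc9 are among its 10 leading genes, so their levels describe the cluster and test nothing. Of all Fetub UMIs in the SMC set, 89.5%, 76.6% and 29.0% lay in this cluster in the libraries labelled Klf4-floxed, Marfan and control, where it held 19.0%, 15.9% and 1.37% of all UMIs. The shares were 86.4%, 75.8% and 19.4% for Gfra2, 81.6%, 70.4% and 45.2% for Ttc9, 81.4%, 67.1% and 12.4% for Ccnd1, and 80.8%, 67.3% and 12.9% for Gas7. Nrgn had 68.5%, 59.8% and 15.7% of its UMIs there and Mia 67.3%, 64.4% and 5.0%. Srpx2 (47.1%, 41.9% and 3.06%) and Gldn (39.4%, 30.3% and 2.18%) were spread most widely.

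Outside cluster 8 the ratios of both mutant libraries to control were lower for every gene than in the whole SMC set. Mia was at 19.4, 19.8 and 21.3 CPM in the remaining cells labelled Klf4-floxed, Marfan and control, Srpx2 at 13.0, 8.38 and 12.7 CPM and Gldn at 29.2, 21.1 and 22 CPM. For these secreted and surface proteins the mutant libraries were not both above control. Ttc9 was at 7.29, 7.57 and 0.699 CPM, Fetub at 7.25, 11.5 and 2.66 CPM, and Gfra2 at 3.32, 3.51 and 1.01 CPM. Ccnd1 was at 5.45, 7.84 and 3.20 CPM, Gas7 at 6.74, 8.72 and 5.33 CPM, and Nrgn at 26.7, 21.7 and 14.5 CPM. Inside the cluster the genotypes also differed: Fetub was at 263, 198 and 78.2 CPM, Ttc9 at 138, 95 and 41.6 CPM and Gfra2 at 89.7, 58.2 and 17.7 CPM, but Nrgn at 247, 170 and 195 CPM, with control above Marfan. The other SMC clusters held fewer of the genes. Cluster 5, led by Tnnt2 and Psd, held Fetub at 24.9, 28.1 and 7.32 CPM but little Mia (3.12, 4.33 and 5.51 CPM). Cluster 1, led by Rgs4 and Mylk4, held Gldn at 33.1, 24.0 and 26.1 CPM and hardly any Fetub (0.747, 1.96 and 0.674 CPM). The unnamed cluster 7, led by Igfbp2 and Acan, held Nrgn at 63.0, 46.5 and 78.9 CPM and Gldn at 45.3, 36.2 and 34.1 CPM, with Fetub at 3.83, 5.28 and 4.98 CPM.

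Against the lineage-negative cell types, a gene was counted as higher in SMCs when it was at least 1.5-fold above every named class of at least 50 cells. Fractions were captured apart, so each level is relative to its own cells' RNA. The count was 0 of 9 in the library labelled Klf4-floxed over 6 classes (3.16% of all genes passed), 0 of 9 in Marfan over 7 classes (3.32%) and 1 of 9 in control over 4 classes (5.13%), which was Gldn. The classes were named from their markers. In the fibroblast-like class, 4.51%, 4.40% and 4.19% of cells of the libraries labelled Klf4-floxed, Marfan and control had a Myh11 UMI, which shows how far a single Myh11 UMI marks an SMC.

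Gldn was at 39.1, 25.4 and 22.2 CPM in SMCs labelled Klf4-floxed, Marfan and control, against 0.232, 0.403 and 0.567 CPM in fibroblast-like cells. It had 0 UMIs in every endothelial and lymphatic endothelial class and at most 1 UMI in the valve and macrophage classes. Mesothelial-like cells, which reached 50 cells in both mutant libraries only, held it at 45.1 CPM (32 UMIs) and 22.4 CPM (44 UMIs), and the interval of the ratio to SMCs spanned 0 in both (log2 SMC over mesothelial -0.21 [-0.71, 0.34] and 0.18 [-0.25, 0.65]). Mia was shared with the valve interstitial or chondrocyte-like class, at 47.9, 46.7 and 22.1 CPM in SMCs, against 128, 98.4 and 81.2 CPM in that class, and was under 1 CPM in fibroblast-like and macrophage classes. Marfan neutrophils had 5.63 CPM of Mia. In Fn1-high cells of Marfan, Mia reached 122 CPM and lay above the valve class (log2 0.31 [0.15, 0.48]), and in those labelled Klf4-floxed it stayed below (93.1 CPM, -0.46 [-0.63, -0.28]). Srpx2 was highest in the valve class too, at 123, 112 and 151 CPM, followed by fibroblast-like cells at 30.6, 35.1 and 29.8 CPM, against 19.9, 12.1 and 13.0 CPM in SMCs.

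Fetub and Gfra2 were shared with fibroblast-like cells. Fetub was at 56.0, 41.3 and 3.69 CPM in SMCs labelled Klf4-floxed, Marfan and control, against 43.8, 39.4 and 44.1 CPM in fibroblast-like cells, with the Marfan pair overlapping (log2 0.07 [-0.02, 0.15]). The control SMCs alone were far below their fibroblasts (-3.58 [-3.79, -3.37]). Fn1-high cells exceeded the fibroblast class for Fetub by log2 1.61 [1.52, 1.71] in the library labelled Klf4-floxed and 1.41 [1.30, 1.53] in Marfan. Gfra2 was at 19.8, 12.2 and 1.24 CPM in SMCs, against 47.1, 33.3 and 47.7 CPM in fibroblast-like cells, and within these it was concentrated in cluster 3 (led by Hsd11b1 and Gdf10) at 128, 88.1 and 117 CPM, against 9.57, 5.99 and 6.67 CPM in cluster 2. In Fn1-high cells Gfra2 met the fibroblast level in both mutant libraries (log2 0.13, with an interval that just includes 0, and 0.12 [-0.06, 0.29]). Ttc9 had the opposite place among fibroblasts, at 40.8, 29.3 and 12.5 CPM in cluster 2 (led by Cyp2e1 and Prss35), against 1.35, 1.41 and 1.18 CPM in cluster 3.

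The intracellular proteins were widely shared. Ttc9 was highest in lymphatic endothelial-like cells, at 159, 106 and 175 CPM, against 32.1, 21.5 and 1.26 CPM in SMCs, and was also counted in the valve class (47.5, 58.7 and 26.6 CPM), in mesothelial-like cells (45.1 and 73.4 CPM in both mutant libraries) and in endothelial-like cells (37.0 and 32.7 CPM). Nrgn was at 113 and 53.5 CPM in mesothelial-like cells of both mutant libraries and at 73.6, 28.2 and 115 CPM in the lymphatic class, against 68.5, 45.4 and 17.0 CPM in SMCs. The Marfan SMC and mesothelial levels overlapped (log2 -0.24 [-0.52, 0.06]). Ccnd1 was far higher in every lineage-negative class but Marfan neutrophils (1.88 CPM) than in SMCs, at 159, 122 and 98.8 CPM in fibroblast-like, 358, 392 and 355 CPM in macrophage and 369, 248 and 373 CPM in lymphatic cells, against 23.7, 20.02 and 3.60 CPM in SMCs. Even in Fn1-high cells cyclin D1 stayed below the highest class, by log2 -2.91 [-3.08, -2.74] against mesothelial-like cells labelled Klf4-floxed and -2.72 [-2.86, -2.59] against Marfan macrophages. Gas7 was at 84.6, 76.9 and 76.7 CPM in fibroblast-like cells, 74.3, 76.2 and 72.2 CPM in macrophages and 231, 204 and 264 CPM in the unnamed cluster 12 (led by Folr2, Cd163 and Lyve1), against 28.5, 22.4 and 6.04 CPM in SMCs.

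**Figure D5:**
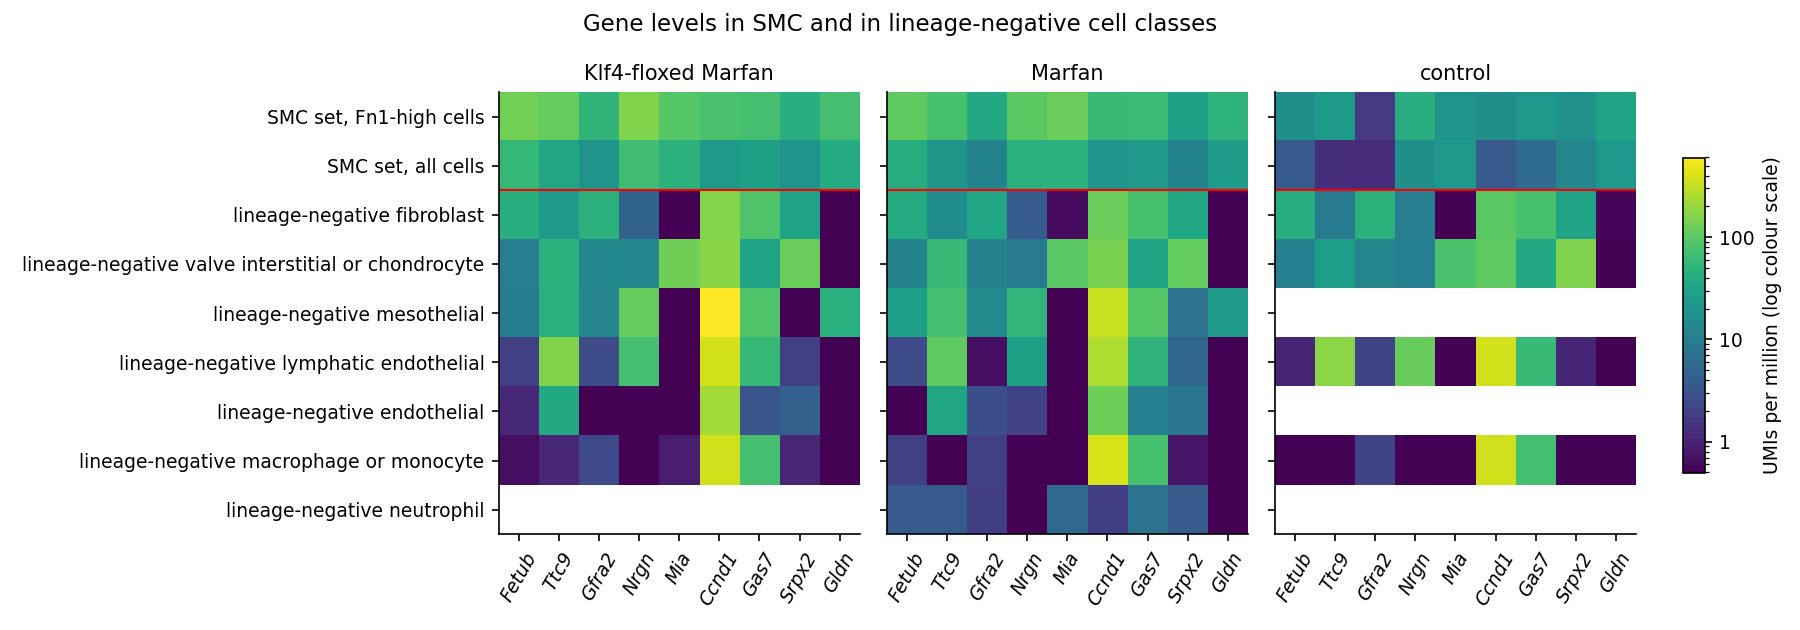
Level of each gene (colour, CPM on a log scale from 0.5 or less, including 0, upwards) in Fn1-high cells of the SMC set, the whole SMC set and the lineage-negative classes of the library labelled Klf4-floxed, Marfan and control. Blank cells are classes under 50 cells. The Gldn column is dark outside SMCs apart from mesothelial-like cells, while Ccnd1 is bright in most lineage-negative classes.

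In fibroblast-like cells of the same roots the genotype ratios of the 7 genes higher in both mutant SMC libraries were smaller in size or of the other sign. Against control, log2 ratios for the library labelled Klf4-floxed and for Marfan were -0.01 [-0.11, 0.08] and -0.16 [-0.26, -0.06] for Fetub, and -0.02 [-0.11, 0.08] and -0.52 [-0.62, -0.42] for Gfra2. Gas7 stood at 0.14 [0.07, 0.21] and 0.00 [-0.07, 0.08]. Fetub and Gas7 thus differed little there although their SMC ratios were large. Gfra2 was level with control in the library labelled Klf4-floxed but lower than control in Marfan. Ttc9 was higher in both, at 1.36 [1.18, 1.55] and 0.83 [0.64, 1.03], and Ccnd1 less so, at 0.69 [0.63, 0.75] and 0.30 [0.24, 0.36]. Nrgn was lower in both, at -1.13 [-1.38, -0.88] and -1.42 [-1.69, -1.15]. Neurogranin thus had opposite signs in the 2 fractions, a difference that was not tested.

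Likeness of level was taken over 21 profiles (9 SMC profiles by genotype and Fn1 class and 12 lineage-negative profiles). The closest of 10746 genes differed between the 9, except that Ccnd1 and Gas7 had the same one. The measure is Pearson's r of log2(CPM + 1), given without a p because profiles share libraries and cells. Fetub was nearest to Syt12 (0.94), Lamc3 (0.92), a laminin chain, and Cd248 (0.91), a fibroblast and pericyte surface protein, and Gfra2 to Podn (0.86), a small leucine-rich proteoglycan, and Syt12 (0.86). These are patterns that hold fibroblasts and modulated SMCs together. Mia was nearest to the cartilage proteoglycan Acan (0.98), Wwp2 (0.94) and Pdgfc (0.93), and Srpx2 to Clec11a, Pamr1 and Chrdl1 (0.96 each). Gldn was nearest to Mylk4 and Tafa1 (0.98 each) and Kcnmb1 (0.98), the β1 subunit of the calcium-activated potassium channel of smooth muscle. Nrgn was nearest to Hip1r (0.94), Cldn3 (0.93) and Sorbs2 (0.93), and Ttc9 to Inf2 (0.91), Vamp5 (0.90) and the prostaglandin transporter gene Slco2a1 (0.90). Ccnd1 and Gas7 shared Man1c1 (0.96 and 0.92), and were among the closest pairs of the 9 (0.88), as were Fetub and Gfra2 (0.85). Ccnd1 and Gldn ran most opposite (-0.80).

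The known partners and relatives of the 9 genes were mostly under 1.5-fold apart. Of 74 such genes in 9 lists, 43 reached 5 CPM. In the library labelled Klf4-floxed, 5 were at least 1.5-fold higher than in control and 2 lower, in Marfan 4 higher and 3 lower than in control, and 1 was higher in the library labelled Klf4-floxed than in Marfan. Over all genes 3.58%, 3.64% and 0.365% were higher in these 3 comparisons. The median log2 ratio to control lay between -0.30 and 0.21 in the library labelled Klf4-floxed and between -0.31 and 0.13 in Marfan for 8 of the lists, and was 0.74 and 1.30 for the urokinase receptor list of Srpx2, from 3 genes measured. In it Plaur, the urokinase receptor, was at 10.8, 16.0 and 6.50 CPM in SMCs labelled Klf4-floxed, Marfan and control. For Plaur the Marfan library was the high one, unlike Srpx2. For Gfra2, its ligand Nrtn was at 85.9, 104 and 106 CPM, Ncam1, another partner of these co-receptors, at 207, 205 and 254 CPM, and the signalling receptor Ret at 0, 0.0757 and 0.0172 CPM. The co-receptor was thus counted in SMCs in which Ret was at or near 0. For Ccnd1, the other D cyclins Ccnd2 (309, 280 and 225 CPM) and Ccnd3 (80.0, 80.9 and 77.0 CPM) were under 1.5-fold apart, the cell cycle inhibitor Cdkn1a was higher in the mutant libraries (129, 143 and 85.0 CPM), and the proliferation marker Mki67 was at 0.413, 0.439 and 0.0862 CPM. Gas1, another growth-arrest gene, was lower in both mutant libraries, at 30.5, 30.1 and 58.2 CPM, while its namesake Gas7 was higher.

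The exception among relatives was Ahsg, which encodes fetuin-A and lies on the same strand as Fetub, ending 18884 bases before it (chr16:22891277-22899449). Ahsg was at 44.8, 23.5 and 3.04 CPM in SMCs labelled Klf4-floxed, Marfan and control, the order seen for Fetub, with log2 ratios to control of 3.88 and 2.95 and of 0.93 between the mutant libraries. In Fn1-high cells it was at 94.3, 51.4 and 25.3 CPM, against 19.1, 12.3 and 2.30 CPM in Fn1-zero cells. Cells with an Ahsg UMI held Fetub in 66.1%, 43.8% and 40.6% of cases, against 8.58%, 6.78% and 2.25% of the other cells, from full counts in which deeper cells detect more of both. Ahsg was also at 135, 146 and 83.7 CPM in fibroblast-like cells and at 131, 119 and 118 CPM in the valve class, where Fetub was at 10.5, 12 and 11.1 CPM. Both fetuin genes were thus counted in fibroblast-like cells and only Ahsg was high in valve-type cells. The next coding gene beyond Fetub, Hrg, and Kng1, both relatives in the cystatin superfamily, had 0 UMIs in the 3 SMC sets.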

How the data were processed

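The deposited values were raw counts of UMIs per gene and cell barcode from Chromium 3′ version 3 libraries. The authors used Cell Ranger (6.1.2 per the file headers) with mm10, per the submitters' processing notes. Annotation release, strand setting and barcode calling were not given in the sources used here. Libraries were placed in groups from their titles. Cells under 1000 UMIs or 500 genes, or above 10% mitochondrial UMIs, were dropped. Doublets were scored per library with Scrublet in scanpy 1.11.5. Its own threshold was used where it marked at least 0.5% of cells, in the Marfan lineage-negative library (70 removed), and elsewhere 0.8% per 1000 cells, by highest score, were taken out (236 to 1171 per lineage-positive library). Kept cells were scaled to 10000 UMIs and clustered on 2000 variable genes, 30 components and 15 neighbours at resolution 1 (leidenalg 0.10.2). A cluster of 20 or more cells took a class's name when at least 3 markers of that class were found in 10% or more of its cells, its marker score led the next class by 0.5 (log2) or more, and its 10 leading genes held no more markers of any other class than of its own. A shallow cluster (median under 1/3 of its libraries') with no own marker among these 10 stayed unnamed. Counts were summed per library and class and given as CPM (exact Poisson intervals), as ratios (exact conditional binomial) and as shares of cells (Clopper-Pearson), all at 95%, with scipy 1.17.1. UMIs limit, but do not remove, amplification error, and intervals cover counting error only. With 1 library per group no test was possible and no p-value is given. Ratio and thinning code was tested on simulated data. All 9 genes are named, with Fn1, Myh11, Klf4, TDT, the 3 most alike genes of each, and partner genes that reached 5 CPM or that bear on a result, except a few that are not reported here. The genes, partner lists and Fn1 classes were chosen with earlier results of these data known. Promoter windows came from RefSeq tables (GRCm38.p6) and were not used for Gfra2, Ccnd1 and Gas7, which had no entry.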

Additional observations from a re-analysis of the deposited data

Results flagged for a closer look

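In 6 cases a gene's ratio in fibroblast-like lineage-negative cells had the opposite sign to its ratio in SMCs, with both 95% counting intervals apart from 0. None of these differences between cell types was tested, since each group was 1 library. The share of all genes that meet this rule is not given, so nothing is read from the number of cases. Nrgn stood at log2 -1.13 [-1.38, -0.88] in fibroblast-like cells and 2.01 in SMCs for the library labelled Klf4-floxed against control, and at -1.42 [-1.69, -1.15] and 1.42 for Marfan against control. For Marfan against control, Gfra2 stood at -0.52 [-0.62, -0.42] in fibroblast-like cells and 3.30 in SMCs, and Fetub at -0.16 [-0.26, -0.06] and 3.48. Gldn stood at -1.29 [-2.51, -0.14] in fibroblast-like cells and 0.81 in SMCs for the library labelled Klf4-floxed against control, from 11 and 19 fibroblast UMIs. Srpx2 stood at -0.20 [-0.30, -0.09] in fibroblast-like cells and 0.71 in SMCs for the ratio of the library labelled Klf4-floxed to Marfan.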

How the results depend on the processing

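Over all alternatives, 308 genotype ratios of single genes stayed within their counting interval with the same sign and 43 moved beyond it without a change of sign of a called value. Of the ratios of Fn1-high to Fn1-zero cells, 68 stayed, 65 moved and 1 reversed: control Gfra2 was at log2 -0.15 with Fn1-high set at 3 or more UMIs, against 0.84 with 4. Control Mia, at -0.06 in the main setting, ran up to 0.95. The count of genes higher in the library labelled Klf4-floxed than in Marfan (4) was 0 at a 2-fold limit and 2 with a minimum of 20 CPM, with a mitochondrial limit of 20% or with each cell given equal weight. The count of genes above every lineage-negative class was 1 with doublets kept and 2 for Fn1-high cells in place of all SMCs in the library labelled Klf4-floxed (0), 1 and 3 under the same choices in Marfan (0), and 0 in control (1) when classes of at least 20 cells counted. The Fn1-high genes were Fetub and Gldn in the library labelled Klf4-floxed, with Nrgn added in Marfan. The cause was not tested. No share of all genes is given for the alternative counts, and overlap with Fn1-high cells chose the genes. Nothing is therefore read from these counts. Of the alternatives, 2 were added after seeing the data. No paired analysis was possible because each group was 1 library, which also means that no replicate could be left out. Counts are few for some control values: Ttc9, Gfra2 and Ccnd1 rest on 73, 72 and 209 control UMIs.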
